A study of Mus musculus with 18 samples.

Results

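The nuclear-encoded subunits of the mitochondrial respiratory chain and of the ATP synthase were followed in 18 RNA-seq libraries from infarcted mouse hearts. Members were chosen by gene symbol and a count minimum, with earlier results of these data known. The rule took symbols of the Nduf, Sdh, Uqcr, Cox4 to Cox8 and Atp5 series, without pseudogene names. At least 30 counts summed over the 18 libraries were required. This gave 80 of the 25230 symbols in the count table, of which 34 belong to complex I, 4 to complex II, 8 to complex III, 17 to complex IV and 17 to complex V. Ndufa4, which is named like a complex I gene but encodes a complex IV subunit, was counted with complex IV. So was Cox7a2l, known as a supercomplex factor of complexes III and IV, whose function in these mice was not tested. Of the other 4 symbols with such names, Cox7b2 had 18 counts, Ndufs5 and Cox8c were listed at 0 in every library, and Cox7c-ps1 is named as a pseudogene. The table holds 0 symbols of the mitochondrial genome, so the subunits encoded there were not analysed here.

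Male C57BL/6J mice had their left anterior descending (LAD) artery tied to cause a myocardial infarction, and 3 days later the atria, the infarcted part of the left ventricle (LV) and its non-infarcted part were taken for polyA RNA. The mice had received liraglutide, an agonist of the glucagon-like peptide-1 receptor used against diabetes and obesity, or PBS, the buffer control. This makes 6 groups of 3 libraries: atria PBS, atria liraglutide, infarcted LV PBS, infarcted LV liraglutide, non-infarcted LV PBS and non-infarcted LV liraglutide. Every group comes from ligated hearts, so the non-infarcted LV is the remote wall of an infarcted heart and not healthy tissue, and sham-operated mice were not analysed here. No label used here gives the age of the mice, the dose and schedule of liraglutide, or which regions share a mouse. The labels call the replicates biological without naming animals, so the p-values measure the spread between these samples.

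The respiratory chain moves electrons from NADH (through complex I) and succinate (through complex II, which is also an enzyme of the tricarboxylic acid cycle) to ubiquinone, then through complex III and cytochrome c to complex IV, which reduces oxygen. Complexes I, III and IV pump protons across the inner mitochondrial membrane, and complex V, the ATP synthase, uses the proton gradient to make ATP. Heart muscle is among the tissues richest in mitochondria, and most of its ATP comes from this pathway. Most subunits are encoded in the nucleus, and several complex IV subunits have paired genes, one used mainly in heart and skeletal muscle and the other in most tissues.

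Library totals ran from 4280459 to 21853482 counts, and all 80 members had counts in every library. Levels are given as CPM, the counts scaled to a common library total, and fold changes come from edgeR fits with TMM scaling, so a fold change can differ from the ratio of the CPM. The regions carried their markers: Myl7, an atrial myosin light chain, lay at 3705 to 6009 CPM in the atria and at 0 to 81.9 CPM in the ventricle, and Myl2, the ventricular form, at 7695 to 11179 CPM in the ventricle. In the atria Myl2 was at 2.08 to 8.82 CPM with PBS but at 275, 8.30 and 924 CPM in liraglutide replicates 1, 2 and 3. Atria PBS replicate 2 held the fat cell genes Adipoq at 79.2 CPM and Ucp1 at 88.8 CPM, against at most 4.84 and 0.144 CPM in any other library. Calls of members in the atria that were lost without atria PBS replicate 2 or atria liraglutide replicate 1 or 3 are given with their values below.

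The members together took 5.07 to 5.68% of the counts in the non-infarcted LV, 4.61 to 5.01% in the infarcted LV and 3.41 to 3.54% in the atria, so the 3 regions did not overlap. With PBS, the summed level of all members was 52036, 56817 and 55905 CPM in the non-infarcted LV, 48577, 47135 and 48104 CPM in the infarcted LV and 35079, 34700 and 35305 CPM in the atria. The infarcted wall therefore stood at 87.3% of the non-infarcted mean and the atria at 63.8%. With liraglutide the same shares were 90.1% and 64.8%. Complex II was the complex furthest below the non-infarcted LV in both regions and both treatments, at 82.9% in the infarcted LV and 55.0% in the atria with PBS, and at 83.5% and 54.4% with liraglutide. Complex IV was nearest to the non-infarcted LV in the infarcted wall, at 90.4% with PBS and 94.1% with liraglutide, and complex V in the atria, at 67.7% and 69.3%. These sums are descriptions without a test, and Atp5a1 and Atp5b, the members with the most counts, weigh most in them.

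**Figure D1:**
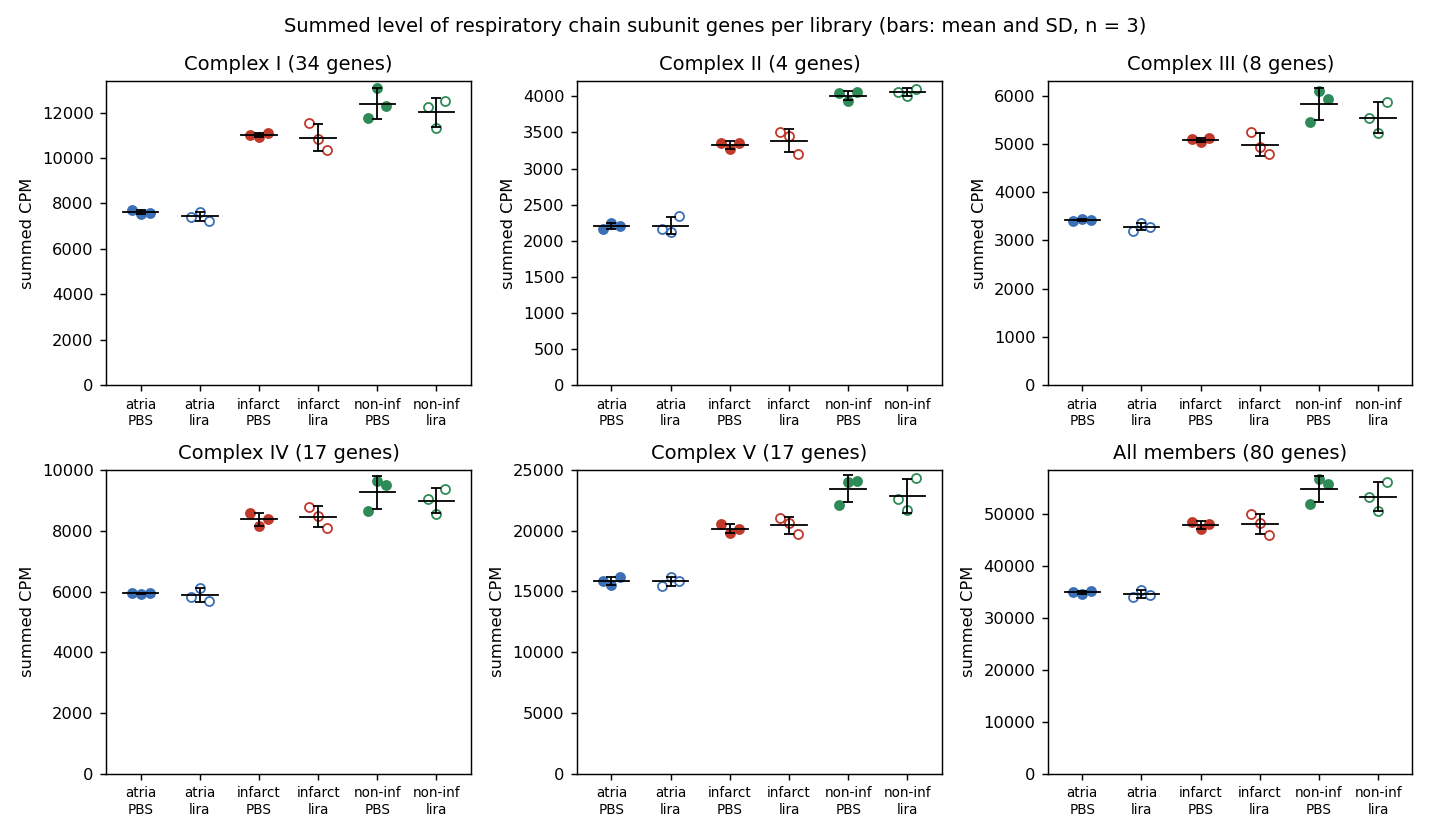
Summed CPM of the member genes of each complex in each of the 18 libraries, by region and treatment (filled points PBS, open points liraglutide, horizontal bars the mean with its SD, n = 3). For all members the atria lie between 34073 and 35428 CPM, the infarcted LV between 46114 and 50082 CPM and the non-infarcted LV between 50730 and 56817 CPM.

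Among the 78 members with an exon length the most abundant per length in the non-infarcted LV with PBS were Cox6a2 at 2129, Atp5a1 at 2071 and Atp5b at 1635 CPM per kilobase of exon. Cox6a2 is the muscle form of a small complex IV subunit, and the other pair encode the alpha and beta subunits that form the catalytic head of ATP synthase. At the low end stood Cox4i2 at 6.16 and Cox6b2, a testis form, at 0.71 CPM per kilobase. A length here joins all annotated exons of a gene, such as 680 bases for Cox6a2 and 4237 for Atp5b. The order per length therefore depends on the annotation. In PBS libraries the means of 69 of the 80 members ran in the order atria, infarcted LV, non-infarcted LV, and 58 did so with liraglutide, against 17.2% and 21.3% of all 13920 genes tested over the 18 libraries. For 41 members with PBS and 25 with liraglutide all 3 regions were separate, with no overlap between neighbours in the order, against 5.49% and 5.8% of all genes. The atria lay below the infarcted LV without overlap for 73 members with PBS and 70 with liraglutide, against 28.1% and 28.2% of all genes, and this is the step of the order that most members share.

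The first comparison asks how the infarcted wall differs from the remote wall of the same kind of heart. With PBS, 40 of the 79 tested members were lower in the infarcted LV and 1, Cox4i2, was higher, at an adjusted p under 0.05. Over all 12831 genes tested, 21.7% were lower and 25.7% higher by the same rule. The median member differed by -0.20 on the log2 scale, against -0.02 for all genes. The falls were small: the largest, in Ndufs1, was -0.42. Cox6b2 was too low to be tested here.

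By complex, the lower members were 16 of 34 in complex I, 4 of 4 in complex II, 4 of 8 in complex III, 6 of 16 in complex IV and 10 of 17 in complex V. Counts were also taken by the role of the subunit. All 7 core subunits of complex I, among them those with the flavin and the iron-sulfur clusters, were lower, against 9 of 27 accessory subunits. In complex III the large core proteins and the Rieske protein were lower in 3 of 3, against 1 of 5 small subunits. In complex V all 4 peripheral stalk genes were lower, 3 of 5 genes of the head and central stalk, 2 of 3 of the c ring and 1 of 5 accessory membrane subunits. Both catalytic subunits and both membrane anchors of complex II were lower, and in complex IV 5 of 8 single or main forms. Over all genes tested 21.7% were lower, and the calls depended on single libraries, as given below. With liraglutide 2 of 7 core and 3 of 27 accessory subunits of complex I were lower. In complex III it was 3 of 3 large and Rieske proteins and 0 of 5 small subunits. The peripheral stalk had 1 of 4 and the single or main forms of complex IV 0 of 8. In the atria with PBS all 7 core and all 27 accessory subunits of complex I were lower. No test of the difference between roles was made.

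Ndufs1 (chr1:63143596-63176833, minus strand, mm10) encodes the largest subunit of complex I and carries iron-sulfur clusters. Its level was 861, 802 and 831 CPM in the 3 non-infarcted PBS libraries and 640.1, 646 and 657 CPM in the infarcted ones. The groups did not overlap, and the log2 fold change was -0.42 (SE 0.0754, adjusted p = 0.000353). Ndufa10, an accessory subunit of complex I, stood at 694, 735 and 664 CPM against 561, 593 and 599.7 CPM, also without overlap (log2 fold change -0.31, SE 0.0708, adjusted p = 0.00223). Ndufv1, the subunit that binds NADH, changed by -0.25 (SE 0.0755, adjusted p = 0.0119), a call that was lost without infarcted PBS replicate 2 (adjusted p = 0.0693) or 3 (0.0526).

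All 4 genes of succinate dehydrogenase were lower. Sdha (chr13:74322254-74350280, minus strand), the flavoprotein that oxidises succinate, was at 2202, 1969 and 2139.6 CPM in the non-infarcted LV and 1729.5, 1622 and 1722 CPM in the infarcted LV (log2 fold change -0.37, SE 0.081, adjusted p = 0.00157). Sdhb, its iron-sulfur partner, was at 872, 907 and 917 CPM against 765, 748 and 781 CPM (log2 fold change -0.29, SE 0.0754, adjusted p = 0.00542). The membrane anchors Sdhc and Sdhd changed by -0.25 and -0.29, and the call of Sdhc was lost without infarcted PBS replicate 2 (adjusted p = 0.0655) or 3 (0.0671). Every infarcted library lay below every non-infarcted library for these 4 genes.

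In complex III, Uqcrc2, a core protein, was at 1204, 1285 and 1283 CPM in the non-infarcted LV and 1038, 1054 and 1062 CPM in the infarcted LV (log2 fold change -0.32, SE 0.0742, adjusted p = 0.00276). Uqcrc1, the other core protein, changed by -0.30 (SE 0.0766, adjusted p = 0.00524), and Uqcrfs1, the Rieske iron-sulfur protein, by -0.32 (SE 0.0832, adjusted p = 0.00555). In complex V, Atp5a1 went from 6284, 6493 and 6704 CPM to 5429.5, 5304 and 5400.1 CPM (log2 fold change -0.33, SE 0.0732, adjusted p = 0.00184) and Atp5b from 6508, 7050.3 and 7229 CPM to 5922, 5727 and 5789.8 CPM (log2 fold change -0.31, SE 0.0762, adjusted p = 0.00367). Both subunits of the catalytic head fell without overlap. Atp5pb, a subunit of the peripheral stalk, changed by -0.32 (SE 0.0709, adjusted p = 0.00187). Atp5g1, Atp5g2 and Atp5g3, 3 genes that encode the same mature c ring protein, had log2 fold changes of -0.15, -0.25 and -0.25 with adjusted p of 0.192, 0.0206 and 0.0348. The calls of the latter pair depend on single libraries and on the fit. In a fit of all 18 libraries both were lost (0.0760 for Atp5g2 and 0.0529 for Atp5g3), and on library totals only the call of Atp5g2 was lost (0.0561). The call of Atp5g2 was also lost without infarcted PBS replicate 2 or 3 or non-infarcted PBS replicate 3 (adjusted p from 0.0736 to 0.0979), and that of Atp5g3 without any of these or non-infarcted PBS replicate 2 (0.0896 to 0.162).

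Complex IV had the median nearest to 0, at -0.17, and held the gene that rose. Cox5a and Cox5b, subunits present as single forms, changed by -0.31 (SE 0.0878, adjusted p = 0.00859) and -0.24 (SE 0.0747, adjusted p = 0.0155). Cox4i1, the main form of subunit 4, changed by -0.22 (SE 0.0754, adjusted p = 0.0258). The call of Cox5b was lost without infarcted PBS replicate 2 (0.102), and that of Cox4i1 without infarcted PBS replicate 2 (0.0907) or 3 (0.103) or non-infarcted PBS replicate 3 (0.0862). Of the muscle forms Cox6a2 was lower (log2 fold change -0.26, SE 0.0939, adjusted p = 0.0332, lost without infarcted PBS replicate 2 or 3 or non-infarcted PBS replicate 3, at 0.0953 to 0.189), while Cox7a1 at -0.17 (adjusted p = 0.11) and Cox8b at -0.12 (0.281) did not pass. The call of Cox6a2 was also lost in a fit of all 18 libraries (0.0929). The widely expressed forms Cox6a1, Cox7a2 and Cox8a had values of 0.08, -0.01 and -0.10, with adjusted p from 0.413 to 0.916. Cox6b1 was at -0.17 (0.0774), Cox7a2l at 0.01 (0.885) and Ndufa4 at -0.20 (0.053). In this comparison the deviations of same-numbered replicates were weakly correlated (0.106 to 0.139). With the number as a block Ndufa4 passed (adjusted p = 0.0335).

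Cox4i2 (chr2:152754173-152765037, plus strand), a form of subunit 4 known from lung, from hypoxic cells and from pericytes, was at 4.995, 4.89 and 4.68 CPM in the non-infarcted LV and at 13.3, 12.5 and 10.3 CPM in the infarcted LV. The 3 infarcted libraries were all above the 3 non-infarcted ones, a 2.43-fold rise (log2 fold change 1.28, SE 0.163, adjusted p = 1.48e-05). Its share of subunit 4 transcripts, per exon length, was 1.60% ± 0.175 (SD, n = 3) in the infarcted LV and 0.586% ± 0.0428 in the non-infarcted LV. Counted without length the shares were 0.821% and 0.299%. Cox4i1 thus remained by far the main form. Ndufa4l2, a relative of Ndufa4 that is also known from hypoxic cells and pericytes and is not one of the 80, rose by 1.20 (SE 0.119, adjusted p = 1.15e-06). Markers of smooth muscle and pericytes were higher in 3 of 6 genes, with a summed level of 1712 to 1878 CPM in the infarcted LV and 722 to 893 CPM in the non-infarcted LV, and their part in the Cox4i2 result was not tested.

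**Figure D2:**
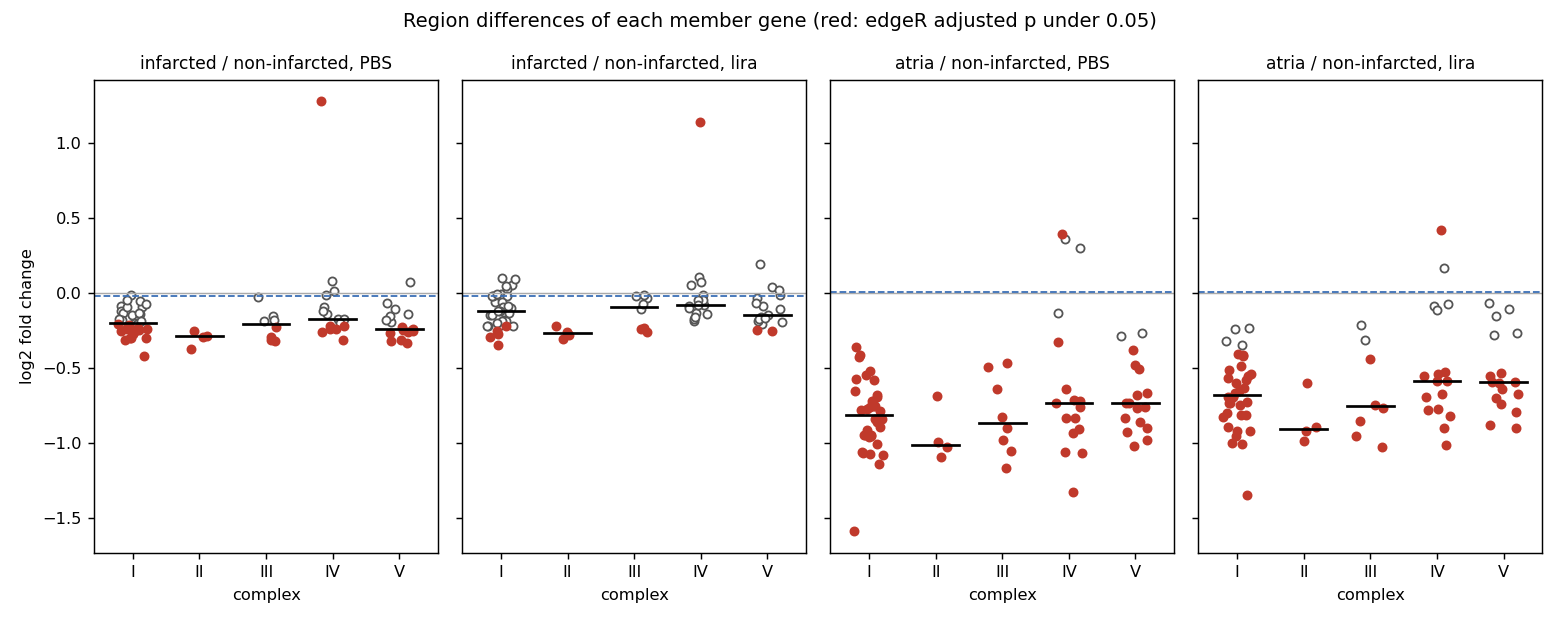
Log2 fold change of each member gene by complex in the 4 comparisons with the non-infarcted LV (red: adjusted p under 0.05, open: not; black bars: median of the complex; blue dashed line: median of all genes tested). In the infarcted LV with PBS the members centre on -0.20 with Cox4i2 at 1.28, and in the atria with PBS they centre on -0.78.

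Other cell types moved in the same comparison. Of 18 cardiomyocyte markers 17 were lower, with a median of -0.40 and a summed level of 114563 to 121761 CPM against 145584 to 158023 CPM. All 9 fibroblast markers were higher (median 1.37), as were all 8 endothelial markers (1.08) and 7 of 9 monocyte and macrophage markers (1.01). None of the 6 neutrophil markers tested passed. In tissue RNA, fewer cardiomyocytes and less of these transcripts per cardiomyocyte cannot be told apart, and the part of cell makeup in the falls above was not tested.

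The count of lower members depended on single libraries. The 41 calls became 17 without infarcted PBS replicate 2, 23 without infarcted PBS replicate 3 and 55 without non-infarcted PBS replicate 1. The median stayed between -0.27 and -0.17 in these fits. The groups did not overlap for 42 members that were lower and 1 that was higher, against 21.6% and 31.4% of all genes.

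Members with a higher level had the more negative fold changes. Across the 79 tested members Spearman's rho between the mean level over both groups and the log2 fold change was -0.63 with PBS and -0.58 with liraglutide, against -0.10 and -0.09 across all genes. The genes share libraries, and the level enters the fold change, so this is a description without a test. For exon length the rho was -0.35 with PBS over the 77 tested members that have a length.

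**Figure D3:**
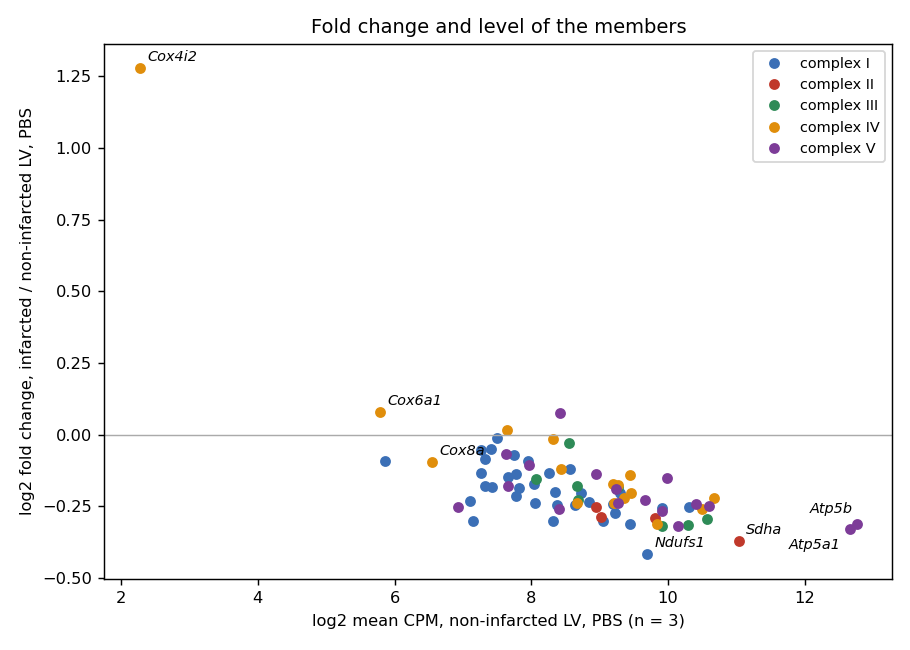
Log2 fold change of infarcted against non-infarcted LV with PBS for the 79 tested members, against the log2 of their mean CPM in the non-infarcted PBS libraries (n = 3), coloured by complex. Cox4i2, at the lowest level, rose by 1.28, while Atp5a1 and Atp5b, at the highest levels, lie at -0.33 and -0.31.

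With liraglutide the same contrast gave fewer calls. Here 14 of 79 members were lower in the infarcted LV and Cox4i2 was again the only one higher. Over all 13022 genes tested, 22.4% were lower and 27.3% higher. By edgeR the share of members called lower was thus near that of all genes. The count changed with the tool and with single libraries, as given below. By ranges, 28 members were lower and 1 higher without overlap of the groups, against 26.4% and 31.4% of all genes. The median member differed by -0.11, against -0.02 for all genes. All 14 were also lower with PBS: Ndufa9, Ndufa10, Ndufb10, Ndufs1 and Ndufs7 of complex I, the 4 genes of complex II, Uqcrc1, Uqcrc2 and Uqcrfs1 of complex III, and Atp5a1 and Atp5pb of complex V. By edgeR no complex IV gene was among them, while DESeq2, which gave 24 calls, called Cox4i1 (-0.20, adjusted p = 0.0448) as well as Ndufv1 (0.0398) and Atp5b (0.0305).

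Ndufs1 was at 858, 858 and 833 CPM in the non-infarcted liraglutide libraries and 695, 689 and 652 CPM in the infarcted ones (log2 fold change -0.34, SE 0.0828, adjusted p = 0.00295). The groups did not overlap. Sdha was at 2119, 2193 and 2161 CPM against 1786, 1859.7 and 1664 CPM (log2 fold change -0.31, SE 0.0902, adjusted p = 0.0108). Cox4i2 was at 6.37, 5.86 and 5.59 CPM against 13.3, 12.4 and 14.4 CPM, again with all infarcted libraries above (log2 fold change 1.14, SE 0.137, adjusted p = 7.32e-06). The remaining core genes had values of -0.26 for Sdhb (adjusted p = 0.0202), -0.24 for Uqcrfs1 (0.0319), -0.26 for Uqcrc1 (0.0418), -0.22 for Ndufv1 (0.0731), -0.18 for Cox4i1 (0.0995), -0.17 for Cox5b (0.104) and -0.21 for Atp5b (0.0848). Of the paralogs, Cox6a2, Cox7a1 and Cox8b stood at -0.16, -0.09 and 0.07, and Cox6a1, Cox7a2 and Cox8a at -0.01, 0.11 and 0.06. Cox6b1, Cox7a2l and Ndufa4 stood at -0.08, -0.05 and -0.08, and Atp5g1, Atp5g2 and Atp5g3 at -0.03, -0.16 and -0.08. None of these paralogs passed, with adjusted p from 0.118 to 0.936.

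The 15 calls fell to 7 without non-infarcted liraglutide replicate 1 and to 6 without non-infarcted liraglutide replicate 3. Of the 14 lower members Ndufs1, Ndufa10, Sdha and Sdhd passed in each of 13 refits with another tool, scaling, filter or design or 1 library left out, and the other 10 lost their call in 2 to 8 of them. The difference between the treatments in this contrast was tested as an interaction in a fit of all 18 libraries. It passed in 0 of 80 members by edgeR and 0 by DESeq2, 0 had an unadjusted p under 0.05 (1.25% of all genes did), and 0% of all genes passed. The median interaction was 0.09. The smallest p belonged to Cox5a at 0.18 (SE 0.132), Ndufa12 at 0.18 (SE 0.131) and Atp5k at 0.20 (SE 0.159), all with an adjusted p of 1.00. The smaller count with liraglutide was therefore not shown to be a different response. Cardiomyocyte markers were lower in 13 of 18 genes with liraglutide, with a median of -0.35.

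The second comparison sets the atria against the non-infarcted LV. With PBS 74 of 80 members were lower in the atria and 1, Cox8a, was higher, against 25.6% lower and 26.3% higher over all 13250 genes tested. The median member differed by -0.78 while the median of all genes was 0.01. With liraglutide 64 were lower and Cox8a was again higher, against 22.9% and 24.6%, and the median member differed by -0.64. Without TMM scaling, on library totals only, the median of all genes in the PBS fit moved from 0.01 to 0.14 and that of the members from -0.78 to -0.65. All 64 members lower with liraglutide were also lower with PBS. Without atria PBS replicate 2 the PBS calls of Ndufa11 (-0.27, adjusted p = 0.0531), Atp5g2, Cox7a2 and Cox8a were lost, and without atria liraglutide replicate 1 the liraglutide calls of Ndufb2 (-0.43, 0.0531) and Cox8a, while no call changed without atria liraglutide replicate 3.

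By complex, with PBS, all 34 members of complex I, all 4 of complex II and all 8 of complex III were lower, with 13 of 17 in complex IV and 15 of 17 in complex V. With liraglutide the counts were 30, 4, 6, 12 and 12. The medians with PBS ran from -1.01 in complex II through -0.86 in complex III and -0.81 in complex I to -0.73 in both complex IV and complex V. The 6 members not called lower in the atria in either treatment were Atp5d and Atp5e, the delta and epsilon subunits of the ATP synthase central stalk, and Cox6a1, Cox6b2, Cox7a2l and Cox8a of complex IV.

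Ndufs6 (chr13:73319838-73328542, minus strand), an accessory subunit of complex I that binds zinc, had the largest difference. Its level was 239.7, 293 and 257 CPM in the non-infarcted LV and 89.2, 94.5 and 103 CPM in the atria (log2 fold change -1.59, SE 0.106, adjusted p = 6.05e-07). With liraglutide it was 252, 233 and 268 CPM against 97.6, 97.6 and 99.98 CPM (log2 fold change -1.35, SE 0.104, adjusted p = 8.26e-06). The atrial libraries lay far below all ventricular ones, and the infarcted LV with PBS, at 237, 239 and 251 CPM, overlapped the non-infarcted LV. Ndufs6 thus separated the chambers but did not pass between the parts of the ventricle (adjusted p = 0.0926 with PBS and 0.443 with liraglutide).

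Ndufa9, another complex I subunit, was at 584, 621 and 584 CPM in the non-infarcted LV and 287, 302 and 297 CPM in the atria (log2 fold change -1.14, SE 0.0847, adjusted p = 1.35e-06). Sdhb was at 479, 449 and 451 CPM in the atria (log2 fold change -1.09, SE 0.092, adjusted p = 3.31e-06), and Sdhd at 267, 299.6 and 284 CPM against 495, 551 and 508 CPM (log2 fold change -0.99, SE 0.0884, adjusted p = 4.84e-06). Uqcrc1 was at 786, 730.3 and 708 CPM in the atria against 1432, 1625 and 1519 CPM (log2 fold change -1.17, SE 0.0951, adjusted p = 2.62e-06). In these 4 genes atria and ventricle did not overlap. Atp5pb changed by -0.98 (SE 0.0936, adjusted p = 8.2e-06) and Atp5j2, a membrane subunit of the ATP synthase, by -0.90 (SE 0.095, adjusted p = 1.64e-05). Ndufs1, Ndufv1, Sdha, Uqcrc2 and Uqcrfs1 differed by -0.77, -0.75, -1.03, -1.05 and -0.82, and Cox4i1, Cox5b and Atp5b by -0.91, -0.83 and -0.48, all past the threshold. With liraglutide these 8 stood at -0.73, -0.60, -0.89, -0.95, -0.74, -0.69, -0.77 and -0.28, of which Atp5b (adjusted p = 0.0736) did not pass, though it did on library totals only (0.0139) and in a fit of all 18 libraries (0.0346).

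The paralogs of complex IV were compared in the atria without a test of the difference between muscle and widely expressed forms. The muscle forms Cox6a2, Cox7a1 and Cox8b were all lower with PBS, at -0.83, -1.07 and -1.06, and with liraglutide, at -0.59, -0.78 and -0.90. Of the widely expressed forms, Cox7a2 was at -0.33 (SE 0.114, adjusted p = 0.0321) with PBS and -0.07 (0.677) with liraglutide, and its PBS call was lost without either of the atria PBS replicates 1 and 2 (0.0533 and 0.0821) or the non-infarcted PBS replicates 2 and 3 (0.0991 and 0.126). Cox6a1 stood at 0.36 (adjusted p = 0.175) with PBS and at -0.09 (0.581) with liraglutide. The PBS value rests on atria PBS replicate 2, at 108 CPM against 65.0 and 59.2 CPM, and was 0.07 (0.648) without it. Cox6b1 was lower (-0.73 and -0.59), its testis form Cox6b2 was at 0.30 and 0.16 with adjusted p of 0.562 and 0.855, Ndufa4 was lower (-0.71 and -0.54) and Cox7a2l was at -0.13 and -0.11 (0.229 and 0.361). Cox4i2 was lower too, at 2.60, 1.38 and 2.71 CPM in the PBS atria (log2 fold change -1.32, SE 0.287, adjusted p = 0.00266) and at a log2 fold change of -1.02 with liraglutide. Smooth muscle and pericyte markers summed to 304 to 335 CPM there, against 722 to 893 CPM in the non-infarcted LV, and their part was not tested.

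Cox8a (chr19:7215153-7217616, minus strand), the widely expressed form of subunit 8, was at 125, 164 and 114 CPM in the atria and 81.0, 105 and 94.3 CPM in the non-infarcted LV (log2 fold change 0.39, SE 0.131, adjusted p = 0.0273). The groups did not overlap, and atria PBS replicate 2, the library with fat cell genes, was highest. Without that library the value was 0.25 with an adjusted p of 0.109, and without non-infarcted PBS replicate 1 it was 0.29 with 0.123. With liraglutide Cox8a was at 119, 116 and 96.9 CPM against 80.4, 79.9 and 89.2 CPM (log2 fold change 0.42, SE 0.141, adjusted p = 0.0322), and the call was lost when any library other than atria liraglutide replicate 3 was left out (adjusted p from 0.0562 to 0.12). Cox8b (chr7:140898945-140900446, minus strand), the muscle form, was at 193, 177 and 175 CPM against 306, 383 and 350.2 CPM (log2 fold change -1.06, SE 0.103, adjusted p = 9.56e-06). Per exon length, Cox8b made up 70.1% ± 4.41 (SD, n = 3) of subunit 8 transcripts in the PBS atria against 86.4% ± 0.230 in the non-infarcted LV. With liraglutide the shares were 73.0% ± 0.774 and 87.0% ± 1.27. Counted without length, the PBS shares were 57.8% and 78.8%, so the size of the difference depends on the length correction.

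The same shares for the other pairs moved less. Cox7a1 made up 65.9% ± 2.85 of its pair in the PBS atria against 76.5% ± 1.26 in the non-infarcted LV. With liraglutide it was 66.5% ± 0.990 against 76.4% ± 1.39. Counted without length, the PBS shares of Cox7a1 were 52.3% and 64.8%. Cox6a2 made up 92.1% ± 3.24 against 96.4% ± 0.452 with PBS, where atria PBS replicate 2 alone was at 88.3%, and 94.9% ± 0.277 against 96.4% ± 0.104 with liraglutide. In all 3 pairs the 6 atrial libraries were below the 6 non-infarcted ones. The infarcted LV was close to the non-infarcted LV, at 86.3% ± 0.776 for Cox8b and 74.4% ± 1.05 for Cox7a1 with PBS. The 3 genes of the c ring, Atp5g1, Atp5g2 and Atp5g3, were lower in the atria, at -0.76, -0.38 and -1.02 with PBS. The call of Atp5g2 was lost without atria PBS replicate 2, the library with fat cell genes (-0.30, adjusted p = 0.0554), without non-infarcted PBS replicate 3 (-0.33, 0.0522) and on library totals only (-0.25, 0.0672). With liraglutide Atp5g1 and Atp5g3 were lower, at -0.59 and -0.88, while Atp5g2 was at -0.15 (adjusted p = 0.33). The call of Atp5g1 was lost without non-infarcted liraglutide replicate 3 (-0.50, adjusted p = 0.0612).

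**Figure D4:**
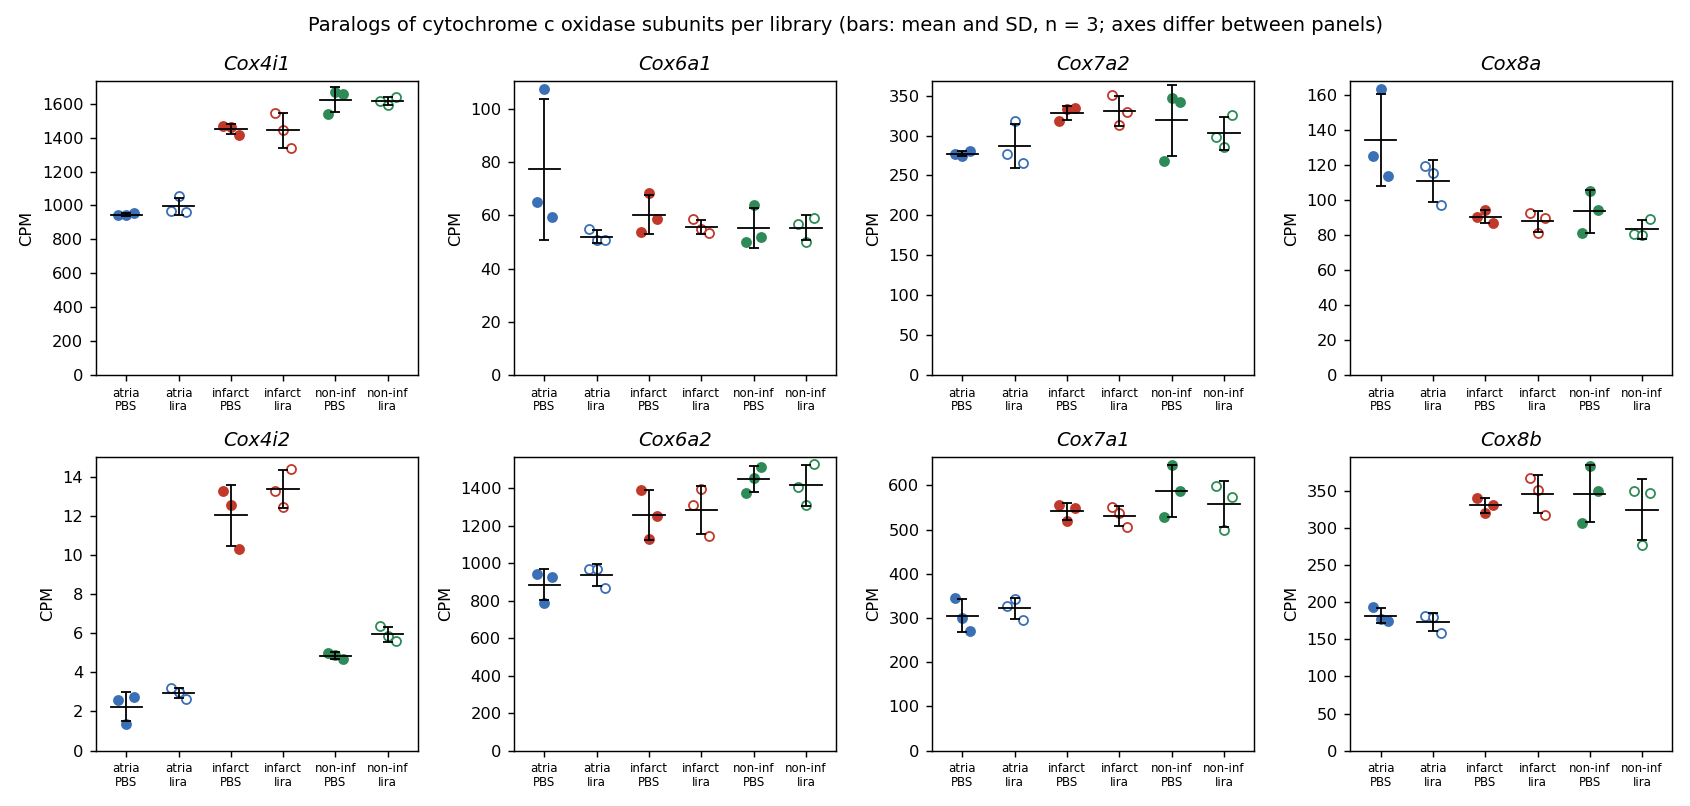
CPM of 4 pairs of complex IV genes in each library, with the main form Cox4i1 and the widely expressed forms Cox6a1, Cox7a2 and Cox8a in the upper row, and the minor form Cox4i2 and the muscle forms Cox6a2, Cox7a1 and Cox8b in the lower row (filled points PBS, open points liraglutide, bars mean and SD, n = 3). By group mean Cox8a is highest in the atria, at 96.9 to 164 CPM, where Cox8b is lowest, at 159 to 193 CPM, and Cox4i2 is highest in the infarcted LV, at 10.3 to 14.4 CPM.

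Nuclear respiratory factor 1 (NRF1), ETS factors such as GABP, estrogen-related receptors and YY1 are known regulators of this gene set. Whether their motifs have a part in the differences above was not tested. RefSeq promoters of the GRCm38.p6 build, 250 bases before to 50 after the start, were found for 66 members and searched on both strands, counting a gene once if any of its promoters held the letters. The ETS letters CCGGAAG were in 17 of 66 members (25.8%), against 9.93% of all 27025 genes with a promoter in the table. The YY1 letters AAGATGGCG were in 7 (10.6%) against 1.64%, the NRF1 letters GCGCA followed directly by TGCGC in 5 (7.58%) against 1.07% and the estrogen-related receptor letters TCAAGGTCA in 2 (3.03%) against 0.466%. The genes compared were not matched to the members for base content or level. Among the members no match of one motif overlapped a match of another, and a match is a description, not a binding site. Sequences are shown for the subunit 8 pair, for the member with the largest atrial difference and for a complex II gene that was lower in every region comparison, 5′ to 3′ on the gene's strand, with the matched letters or their reverse complement in capitals. Cox8a lies at chr19:7217567-7217866 (minus), Cox8b at chr7:140900397-140900696 (minus), Ndufs6 at chr13:73328433-73328732 (minus) and Sdhb at chr4:140961021-140961320 (plus). Cox8a has 2 ETS matches, Sdhb has 1, Ndufs6 has 1 YY1 match and Cox8b has 0 of the 4 motifs.
Cox8a: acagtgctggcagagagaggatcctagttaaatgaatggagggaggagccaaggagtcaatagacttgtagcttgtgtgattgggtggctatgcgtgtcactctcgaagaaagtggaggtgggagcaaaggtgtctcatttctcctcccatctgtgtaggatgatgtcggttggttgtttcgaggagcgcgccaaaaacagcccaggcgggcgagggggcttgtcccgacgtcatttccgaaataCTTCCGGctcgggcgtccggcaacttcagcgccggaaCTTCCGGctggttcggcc
Cox8b: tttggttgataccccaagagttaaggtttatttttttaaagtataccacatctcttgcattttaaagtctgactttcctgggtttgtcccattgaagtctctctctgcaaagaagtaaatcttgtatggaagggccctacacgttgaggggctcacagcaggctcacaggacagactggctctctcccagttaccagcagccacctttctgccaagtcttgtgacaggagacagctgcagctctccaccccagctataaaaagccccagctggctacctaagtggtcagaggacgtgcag
Ndufs6: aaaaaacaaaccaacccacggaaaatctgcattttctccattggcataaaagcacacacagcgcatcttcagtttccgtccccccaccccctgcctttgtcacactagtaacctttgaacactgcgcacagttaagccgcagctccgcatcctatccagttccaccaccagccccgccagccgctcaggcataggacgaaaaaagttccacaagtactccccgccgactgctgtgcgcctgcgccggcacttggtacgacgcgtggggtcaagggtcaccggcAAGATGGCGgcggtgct
Sdhb: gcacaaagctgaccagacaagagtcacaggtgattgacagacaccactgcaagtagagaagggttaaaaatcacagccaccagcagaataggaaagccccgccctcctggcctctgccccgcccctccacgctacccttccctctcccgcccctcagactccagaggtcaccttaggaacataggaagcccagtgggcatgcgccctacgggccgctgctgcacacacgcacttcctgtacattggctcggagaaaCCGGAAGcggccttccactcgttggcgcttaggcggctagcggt

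The atria differed from the ventricle in cell markers as well. Cardiomyocyte markers were lower in 13 of 18 genes with PBS (median -0.65) and in 9 of 18 with liraglutide, where 1 was higher (median -0.30). Their summed level was 108777 to 123194 CPM in the PBS atria against 145584 to 158023 CPM in the non-infarcted LV. All 6 neutrophil markers tested were higher with PBS (median 3.59) and 8 of 9 monocyte and macrophage markers (1.12). The part of these cells in the lower levels of the members was not tested.

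The 14 members lower in all 4 comparisons with the non-infarcted LV are the 14 named above for liraglutide. These comparisons share their non-infarcted libraries within a treatment, so the overlap is a description. Of the 12594 genes tested in all 4 comparisons 8.84% were lower in each, and of the members tested in all 4 it was 14 of 79. The set rests on the calls in the infarcted LV with liraglutide, 10 of which depend on the refit as given above. The replicate block dropped Atp5a1, Uqcrc1, Ndufa9 and Sdhc there. DESeq2 gave 24 calls there, with Cox4i1, Ndufv1 and Atp5b among those it added.

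Other genes of the pathway, which are not among the 80, are given for context. In the infarcted LV with PBS all 13 tricarboxylic acid cycle genes were lower, with Idh3a, a subunit of isocitrate dehydrogenase, at -0.45 (SE 0.0771, adjusted p = 0.000211). All 9 inner membrane carriers and coupling genes were lower, led by Ucp3, an uncoupling protein, at -3.13 (SE 0.217, adjusted p = 5.73e-05). Of 44 assembly factors 23 were lower, among them Ndufaf4 at -0.68, Cox10 at -0.61 and Uqcc1 at -0.52, and of 78 mitochondrial ribosomal proteins 42 were lower. Of 15 regulators 7 were lower and 2 higher, with Ppara, a nuclear receptor for fatty acids, at -1.54, Esrrb at -0.79 and Polrmt, the mitochondrial RNA polymerase, at -0.63. Of the electron carriers and further subunits, Cycs (cytochrome c) was at -0.34 and Cyc1 (cytochrome c1 of complex III) at -0.30. With liraglutide the lower counts were 8 of 13, 6 of 9, 22 of 44, 34 of 78, 10 of 15 and 3 of 4 in the same order of lists. Of all genes tested 21.7% were lower and 25.7% higher with PBS, and 22.4% lower with liraglutide.

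In the atria with PBS the tricarboxylic acid cycle genes were lower in 13 of 13, with Suclg2 at -1.39 and Sucla2 at -1.41, both subunits of succinyl-CoA ligase. Assembly factors were lower in 37 of 44, among them Lrpprc, which stabilises mitochondrial messenger RNA, at -1.56. Mitochondrial ribosomal proteins were lower in 72 of 78, with Mrps6 the 1 higher, at 1.71. Of the regulators 9 of 15 were lower, such as Ppara at -1.14, and 2 higher, with Pprc1, a relative of PGC-1alpha, at 1.05. Of the carriers and coupling genes 7 of 9 were lower, with Ckmt2, the muscle form of mitochondrial creatine kinase, at -1.78, and Ucp2 was higher at 2.82. With liraglutide the lower counts were 13, 37, 63, 9 and 7. Of all genes tested here 25.6% were lower and 26.3% higher with PBS, and 22.9% lower with liraglutide.

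The third comparison sets liraglutide against PBS within each region, the question in the title of the series. No member passed in any region. By edgeR 0 of 80 members passed in the atria, where 0.00739% of all genes did, 0 of 79 in the infarcted LV and 0 of 80 in the non-infarcted LV, where 0% of all genes did. DESeq2 also gave 0 members in each region. At an unadjusted p under 0.05 there were 1, 0 and 2 members, against 6.87%, 5.24% and 4.34% of all genes. The median log2 fold changes of the members were 0.06 in the atria, 0.01 in the infarcted LV and -0.08 in the non-infarcted LV. On library totals only, without TMM, the atrial median was -0.04, so its sign depends on the scaling.

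In the atria the smallest p belonged to Cox6a1, at 65.0, 108 and 59.2 CPM with PBS and 54.7, 50.6 and 50.6 CPM with liraglutide (log2 fold change -0.47, SE 0.203, adjusted p = 0.727). The groups did not overlap, and the highest value was again atria PBS replicate 2. Ndufc2 followed at -0.20 (SE 0.121, adjusted p = 0.817) and Cox4i2 at 0.55 (SE 0.332, adjusted p = 0.818). In all, 7 members were lower and 1 higher without overlap of the groups, against 12% and 2.94% of all genes. Leaving out atria liraglutide replicate 3 and PBS replicate 2 together gave 0 calls and a median of 0.12.

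In the infarcted LV the smallest p belonged to Ndufa11 at -0.17 (SE 0.0863), Ndufa12 at 0.16 (SE 0.0872) and Ndufa5 at 0.12 (SE 0.0805), all accessory subunits of complex I, with adjusted p from 0.956 to 0.97. Here every member lay between -0.17 and 0.16. Sdha was at 1729.5, 1622 and 1722 CPM with PBS and 1786, 1859.7 and 1664 CPM with liraglutide, which overlap. In the non-infarcted LV they belonged to Ndufa3 at -0.20 (SE 0.0848), Ndufa11 at -0.20 (SE 0.0919) and Cox8a at -0.19 (SE 0.0961), each with an adjusted p of 0.999. There 74 of 80 members were below 0, with the member values between -0.20 and 0.27, and in summed level the PBS libraries at 52036 to 56817 CPM overlapped the liraglutide libraries at 50730 to 56193 CPM. Members that did not overlap numbered 1 lower and 3 higher in the infarcted LV (5.63% and 4.07% of all genes), and 1 lower and 2 higher in the non-infarcted LV (3.58% and 5.38%).

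**Figure D5:**
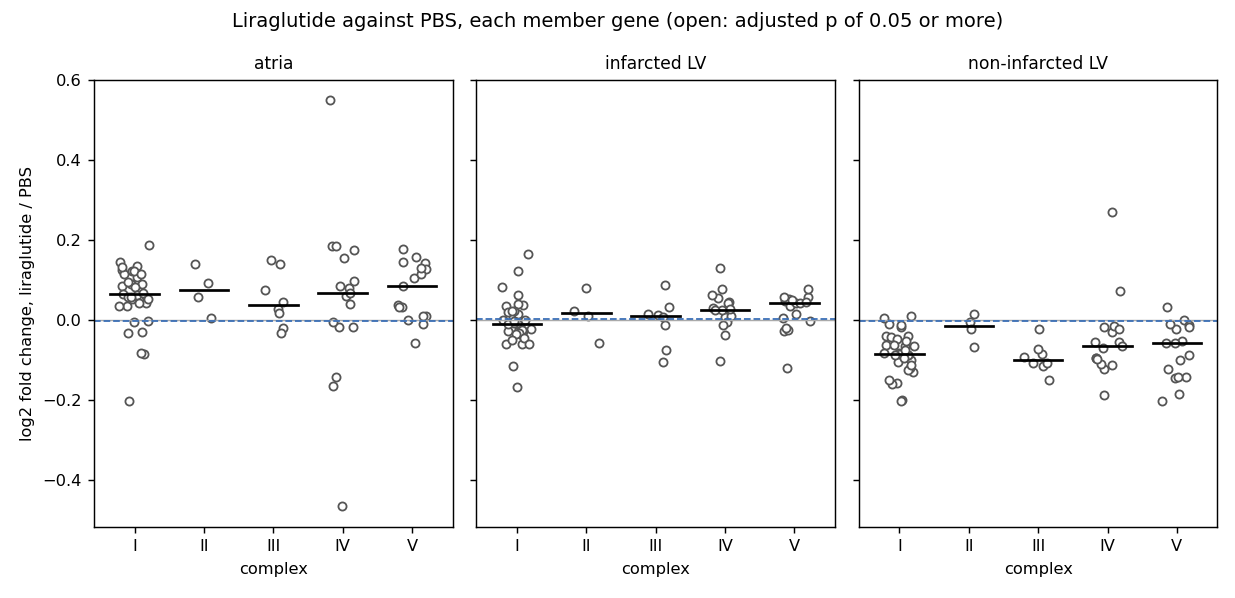
Log2 fold change of liraglutide against PBS for each member by complex in the 3 regions (open points: adjusted p of 0.05 or more, black bars: median of the complex, blue dashed line: median of all genes tested). No point is filled in any region, and the members centre on 0.06, 0.01 and -0.08.

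The difference between the atrial and the non-infarcted effect of liraglutide passed in 0 of 80 members by edgeR and 0 by DESeq2, with 0 at an unadjusted p under 0.05 (5.39% of all genes), and its median was 0.15. The smallest p belonged to Ndufb9 at 0.29 (SE 0.14, adjusted p = 0.92), Cox6a1 at -0.44 (SE 0.22, adjusted p = 0.932) and Atp5j2 at 0.27 (SE 0.147, adjusted p = 0.959). Among the regulators Ppargc1a, which encodes the coactivator PGC-1alpha, was at 0.75 (SE 0.203, adjusted p = 0.502) with liraglutide in the atria, and no gene of the pathway lists passed in any region. A p that misses the threshold does not show that liraglutide left these transcripts as they were.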

How the data were processed

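The files hold raw counts per gene symbol, deposited by the authors as a table of 18 libraries from a stranded polyA kit. STAR 2.7.9a, DESeq2 and the mm10 build are named per the submitters' processing notes. No label used here names the counting tool, its strand setting or the annotation, so reads of near-identical copies or overlapping genes may be shared. Every column was mapped to a sample by the label of its description.

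Each comparison was fitted on the whole table with edgeR 4.0.16 in R 4.3.3 (quasi-likelihood test, filterByExpr, TMM, robust), on the 6 libraries of its groups, with Benjamini-Hochberg adjustment over all genes tested and a threshold of 0.05. Interactions were fitted on all 18 libraries. The scripts were tested on simulated data. CPM is the count divided by the library total, with no TMM factor. Places and exon lengths come from GENCODE release 21 on GRCm38, with 78 of 80 members found, and promoters from RefSeq. The precision of a level is limited by the counts, and 3 counts correspond to between 0.137 and 0.701 CPM. Alternatives were DESeq2 1.42.0, other scaling factors, other filters, all libraries in one fit, the replicate number as a block and each library left out.

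Members and gene lists were chosen with earlier results of these data known. Named in each comparison are, per complex, up to 2 called members in each direction with the smallest p, or the 3 smallest where none was called, and always the catalytic and core subunits and the paralog sets. The 14 members shared by all region comparisons, the exceptions in the atria and single genes of the text beyond this rule were named after their values were seen. Each infarcted PBS library correlated best with the non-infarcted PBS library of its number, though weakly (correlations of deviations 0.135, 0.106 and 0.139). The same held against the non-infarcted LV for the infarcted LV with liraglutide (0.112, 0.0765 and 0.104). It also held for the atria with PBS (0.126, 0.0843 and 0.14). No label says that a number marks 1 mouse, so the main fits were not paired. In the other comparisons the best match was not the same number for every replicate.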

Additional observations from a re-analysis of the deposited data

How the results depend on the processing

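Counts of calls within 1.5 times the main fit, and medians within 1 SD of it, were taken as kept. The SD was that of the members' median log2 level between replicates, 0.058. By this rule 242 of 256 counts and medians of the refits were kept. For the effects of liraglutide and their differences, 0 members were called in the main fit and every refit, so these counts were always kept. Single genes kept direction and side of the threshold in 1617 of 1716. For infarcted against non-infarcted LV with PBS, leaving out 1 library gave 17 to 55 calls and medians of -0.266 to -0.172. With liraglutide it gave 6 to 18 calls, and DESeq2 gave 24. For the atria against the non-infarcted LV, the PBS median was -0.649 on library totals only and -0.839 to -0.747 with 1 library left out, and the liraglutide median -0.731 to -0.546. For liraglutide against PBS in the atria the median was -0.0402 on library totals only and 0.0114 to 0.145 with 1 library left out. For the atrial minus the non-infarcted effect it was 0.0834 to 0.239. With the replicate number as a block the calls were 47 (infarcted, PBS), 11 (infarcted, liraglutide), 76 (atria, PBS) and 63 (atria, liraglutide), and 0 for each effect of liraglutide. The block lost the calls of Atp5a1, Uqcrc1, Ndufa9 and Sdhc in the infarcted LV with liraglutide (0.0799, 0.0556, 0.0532 and 0.0523) and of Cox8a and Ndufb2 in the atria with liraglutide (0.0628 and 0.0683), and gave a call for 6 members in the infarcted LV with PBS, Ndufa4 among them, and, in the atria with PBS, for Cox6a1 (0.0388, and 0.0425 with all 18 libraries), whose value there was 0.0740 to 0.489 with 1 library left out. In the infarcted LV with liraglutide and the atria with PBS every sample correlated best with its own number, as a hint from the data only.

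Values near 0 changed sign. With PBS in the infarcted LV, Cox7a2 was 0.0441 on library totals only and -0.138 to 0.0765 with 1 library left out. Cox7a2l was -0.00137 with no filter, -5.79e-05 with all libraries and -0.0260 to 0.0458 with 1 left out, and Cox6a1 -0.0160 to 0.163. With liraglutide, Cox6a1 was 0.0110 on library totals only and -0.0825 to 0.0440 with 1 left out, Atp5g1 -0.158 to 0.0658, Cox8b -0.0356 to 0.141 and Atp5g3 -0.185 to 0.0370. In the atria with liraglutide, Cox6b2 was -0.290 to 1.29, Cox6a1 -0.171 to 0.0107 and Cox7a2 -0.190 to 0.0525. The cause of these changes was not tested.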

Other observations

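By the median, the members varied less between replicates than the genes compared, which were not matched to them in level. The median coefficient of variation of the 80 genes was 3.21% in the infarcted LV with PBS, against 7.33% for all genes with a mean of at least 10 CPM, and 5.30% against 9.53% in the atria with PBS. In the non-infarcted LV it was 6.30% against 8.81% with PBS and 6.19% against 6.98% with liraglutide, and with liraglutide 5.69% against 8.33% in the infarcted LV and 7.36% against 11.1% in the atria. Cox6b2 had the widest spread in each of the 6 groups, up to 100.1% in the non-infarcted LV with liraglutide, at levels of 0.228 to 1.84 CPM there.

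Ndufa4l2 and Cox4i2 had the same order of regions. Ndufa4l2 was at 9.52, 10.8 and 9.59 CPM in the non-infarcted LV, 24.8, 23.4 and 22.7 CPM in the infarcted LV and 5.98, 4.09 and 3.83 CPM in the atria with PBS. It was lower in the atria at -1.22 (SE 0.199, adjusted p = 0.000406).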
